A study of Mus musculus with 2 samples.

Results

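Toll-like receptors and the proteins that help them bind their ligands were followed as a set of 10 genes in sorted mouse brain microglia. The set was taken by symbol from the feature table and makes up 10 of its 31053 genes: the receptors Tlr2, Tlr3, Tlr4, Tlr7, Tlr9, Tlr12 and Tlr13, the receptor homologue Cd180 with its partner Ly86, and the co-receptor Cd14. Microglia from 3-month-old female C57BL/6 mice were isolated without enzymes, sorted by flow cytometry and sequenced as single cells on a droplet platform, as 1 wild-type (WT) library and 1 library labelled IRF8KO, a knockout of the transcription factor IRF8. Each library was a pool from 3 untreated mice, so no difference below has a replicate check, no test of genotype exists, and every interval covers counting error only. The title of the second sample reads IRF8KO while its genotype entry reads WT, and the allele is not named in the labels. The protocol also names a full-length kit for small amounts of RNA beside the droplet platform, and the files hold droplet counts of unique molecular identifiers (UMIs), tags that count each captured transcript a single time.

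Toll-like receptors are membrane proteins of the innate immune system that bind parts of microbes or nucleic acids. Some sit at the cell surface and others in endosomes, and most of them pass the signal through the adaptor Myd88 to NF-kappaB and interferon regulatory factors. In the brain, microglia are the main cells known to carry them. Cd180 resembles a Toll-like receptor without the signalling part and reaches the cell surface together with Ly86, a small secreted protein that binds its outer part.

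Cells were used when they had at least 1000 UMIs, at least 500 genes, at most 10% mitochondrial UMIs and under 2% of their UMIs in the 6 neutrophil genes Camp, Ngp, S100a8, S100a9, Lcn2 and Ltf. This left 3304 of 3504 WT barcodes with 18543061 UMIs and 5007 of 5303 IRF8KO barcodes with 18980263 UMIs. The neutrophil gene rule removed 0 WT cells and 98 IRF8KO cells, and the highest share below the limit was 0.0400% (WT) and 0.232% (IRF8KO), against 2.36% for the lowest cell above it. The median cell held 3204.5 UMIs in WT, against 2933 UMIs in the library labelled IRF8KO. The libraries stood apart in composition: Apoe took 0.0478% of WT UMIs and 8.83% of IRF8KO UMIs. They shared 5 cell barcodes, and without those barcodes 3 of the set were again at least 2-fold lower, 0 were higher and the set's median log2 ratio was again -0.41. Irf8 itself had 14725 WT and 12698 IRF8KO UMIs, or 794 and 669 CPM, where CPM is the number of UMIs of a gene among 1000000 UMIs of its library. The Irf8 log2 ratio was -0.25 and became 0.01 under TMM scaling, which corrects for a few genes taking up much of a library. Counting near the 3′ end does not show whether a deletion elsewhere in Irf8 is present.

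Ly86 and Tlr12 were far lower in the library labelled IRF8KO, Tlr3 was lower by a smaller factor, and the other genes with at least 10 CPM in either library lay within 2-fold. Ly86, the partner of Cd180, stood at 1951 CPM in WT and at 26.9 CPM in the library labelled IRF8KO. Tlr12 stood at 34.5 and 0.263 CPM, and Tlr3, the receptor for double-stranded RNA, at 108.3 and 38.1 CPM. Of the 9 genes that met this minimum, which left out Tlr9, 3 were at least 2-fold lower in the library labelled IRF8KO, beside 9.28 percent of 8859 genes at that level, and 0 were at least 2-fold higher, beside 5.61 percent. Their median log2 ratio, IRF8KO over WT, was -0.41, against -0.28 over all 8859 genes, so 4 of the 9 lay above the median gene and 5 below it. Of the 822 lower and 497 higher genes, 62.3% of calls were lower; TMM scaling, which shifted the median of all genes by 0.26, gave 535 lower and 676 higher, or 44.2% lower. The 3 genes past 2-fold were the same under TMM scaling, where 5 of the 9 had a ratio below 0 and 4 above it, in place of 7 and 2.

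**Figure D1:**
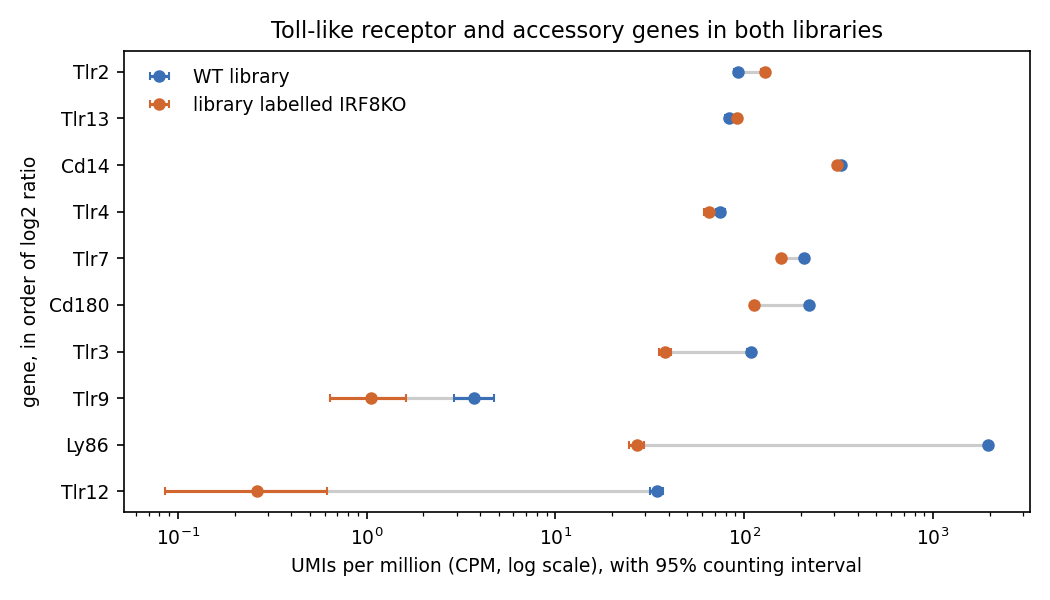
Level of each of the 10 genes in CPM (log scale) in the WT library (blue) and the library labelled IRF8KO (orange), with 95% Poisson counting intervals and genes in order of their log2 ratio; grey lines join the values of a gene. Ly86 and Tlr12 show the widest gaps, and Tlr4 and Cd14 are marginally lower in the library labelled IRF8KO here and marginally higher under TMM scaling, at 0.05 and 0.19 on the log2 scale.

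The start of 4 genes is printed here because they cover the range of ratios in the set: Ly86 and Tlr12 with the lowest, Cd180 as the partner of Ly86, and Tlr2 with the highest. Each runs 5′ to 3′ on the gene's own strand from 150 bases before to 30 bases after the RefSeq start in GRCm38.p6: Ly86 at chr13:37345195-37345374 (+), Cd180 at chr13:102693397-102693576 (+), Tlr12 at chr4:128618590-128618769 (-) and Tlr2 at chr3:83841579-83841758 (-). Capitals mark a match to a core of the interferon-stimulated response element. The gene bounds given further on come from another annotation, GENCODE, which starts Ly86 at 37345208 and Tlr2 (- strand) at 83841767. Most of the printed Ly86 stretch and all of the printed Tlr2 stretch lie within those bounds.
Ly86: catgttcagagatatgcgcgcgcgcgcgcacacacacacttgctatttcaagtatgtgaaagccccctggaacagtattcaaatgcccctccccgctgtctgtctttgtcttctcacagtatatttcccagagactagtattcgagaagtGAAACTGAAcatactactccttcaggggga
Cd180: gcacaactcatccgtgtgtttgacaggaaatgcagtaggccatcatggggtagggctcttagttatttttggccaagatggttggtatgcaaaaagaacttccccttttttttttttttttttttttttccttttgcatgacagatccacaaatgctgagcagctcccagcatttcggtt
Tlr12: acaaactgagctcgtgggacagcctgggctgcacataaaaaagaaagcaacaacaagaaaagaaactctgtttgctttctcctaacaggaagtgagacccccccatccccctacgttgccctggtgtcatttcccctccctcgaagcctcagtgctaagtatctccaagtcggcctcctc
Tlr2: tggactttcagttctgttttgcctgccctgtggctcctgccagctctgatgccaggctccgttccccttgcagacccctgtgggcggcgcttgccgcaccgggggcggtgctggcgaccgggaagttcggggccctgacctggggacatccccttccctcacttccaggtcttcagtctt
The promoter table matched 7 of the 10 genes, with 8 starts, and Tlr4, Tlr7 and Cd14 were not among them. Motifs were searched on both strands: GGAANNGAA, the core of the joint site of ETS factors and interferon regulatory factors; GAAANNGAA, the core of the interferon-stimulated response element; and GAGGAA, the core bound by the ETS factor PU.1. In the 250 bases before the RefSeq start, neither of the first pair occurred in any of the 7 genes. They occur in 6.99% and 7.13% of 32851 promoters. The window was then widened to all 300 bases, a choice made after the Ly86 sequence was seen. The second of the pair then matched in Ly86 as GAAACTGAA at bases 1 to 9 from the RefSeq start. Such a match occurs in 8.56% of all promoters. GAGGAA occurred in Tlr9 and Tlr13, beside 28.3% of all promoters in the 300 bases. A match of these letters is a description of the sequence, and no match says only that these letters are not in this window.

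Ly86 had 36180 WT UMIs and 511 IRF8KO UMIs. These are 1951 CPM (95% interval 1931 to 1971) and 26.9 CPM (24.6 to 29.4), or 72.5-fold lower (66.4 to 79.2), a log2 ratio of -6.18. The gene lies at chr13:37345208-37419036 on the + strand of GRCm38. Over the alternatives tried, its log2 ratio ran from -6.38 with equal weight for each cell to -5.93 under TMM scaling.

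Cd180, the surface receptor that Ly86 binds, was lower by a much smaller factor. Its 4073 WT and 2149 IRF8KO UMIs are 219.7 CPM (213.0 to 226.5) and 113.2 CPM (108.5 to 118.1). Its ratio on the log2 scale was -0.96 (-1.03 to -0.88), just inside the 2-fold line, and it crossed that line to -1.01 with all kept cells and without the cells of highest UMI count. The counts held 8.88 Ly86 UMIs for each Cd180 UMI in WT, against 0.238 in the library labelled IRF8KO. Both genes lie on chromosome 13 and far apart, Cd180 at chr13:102693558-102739629 on the + strand. Its end overlaps Mast4 on the opposite strand, which had 454 and 332 UMIs. Whether strand was used in counting is not given in the sources used here, so reads from the overlap cannot be told apart if it was not.

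Among the surface receptors, neither Tlr2 nor Tlr4 was lower by 2-fold. Tlr2, which binds bacterial lipoproteins as a pair with Tlr1 or Tlr6, had 1719 WT and 2435 IRF8KO UMIs. It stood at 92.7 CPM (88.4 to 97.2) and 128.3 CPM (123.2 to 133.5), a log2 ratio of 0.47 (0.38 to 0.56), and was the highest ratio of the 10 genes under every alternative tried. Tlr4, the receptor for lipopolysaccharide, had 1386 and 1235 UMIs, or 74.7 CPM (70.9 to 78.8) and 65.1 CPM (61.5 to 68.8). Its log2 ratio of -0.20 (-0.31 to -0.09) became 0.05 under TMM scaling, so its direction is not set by these data. Tlr2 lies at chr3:83836272-83841767 on the - strand and Tlr4 at chr4:66827584-66930284 on the + strand.

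Cd14, which hands lipopolysaccharide to Tlr4 and its partner Ly96, had nearly the same level in both libraries. Its 6015 WT UMIs and 5879 IRF8KO UMIs came to 324.4 CPM (316.2 to 332.7) and 309.7 CPM (301.9 to 317.8). A log2 ratio of -0.07 (-0.12 to -0.01) changed sign under all 3 other ways of scaling, to 0.19 under TMM.

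The endosomal receptors for nucleic acids differed from each other in their ratios. Tlr3 (chr8:45395665-45411080, - strand), which binds double-stranded RNA, had 2009 WT and 724 IRF8KO UMIs. Its levels of 108.3 CPM (103.7 to 113.2) and 38.1 CPM (35.4 to 41.0) put it 2.84-fold lower (2.61 to 3.1), a log2 ratio of -1.51. An antisense gene, Gm45542, overlaps Tlr3 and had 4 and 2 UMIs. Tlr7 (chrX:167304929-167330558, - strand), a receptor for single-stranded RNA, had 3850 and 2965 UMIs, or 207.6 CPM (201.1 to 214.3) and 156.2 CPM (150.6 to 161.9). Its log2 ratio of -0.41 (-0.48 to -0.34) was -0.16 under TMM scaling and stayed within 2-fold under every alternative. Tlr13 (chrX:106143204-106160493, + strand), a receptor for bacterial ribosomal RNA, had 1542 and 1744 UMIs, or 83.2 CPM (79.1 to 87.4) and 91.9 CPM (87.6 to 96.3). Its log2 ratio of 0.14 (0.04 to 0.24) was above 0 under every alternative, between 0.09 and 0.40.

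Tlr12 and Tlr9 were the genes with the fewest UMIs. Tlr12 (chr4:128615443-128618619, - strand), a mouse receptor for the profilin of protozoan parasites, had 639 WT and 5 IRF8KO UMIs. Its 34.5 CPM (31.8 to 37.2) and 0.263 CPM (0.0855 to 0.615) gave a 130.8-fold lower level (55.8 to 404.3), a log2 ratio of -7.03. Adding 1 CPM to both libraries brought that to -4.81. Tlr9 (chr9:106222598-106226883, + strand), the receptor for unmethylated CpG DNA, had 69 and 20 UMIs. At 3.72 CPM (2.90 to 4.71) and 1.05 CPM (0.644 to 1.63) it was under the 10 CPM minimum in both libraries, and its log2 ratio of -1.82 (-2.62 to -1.08) was left out of the counts above.

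**Figure D2:**
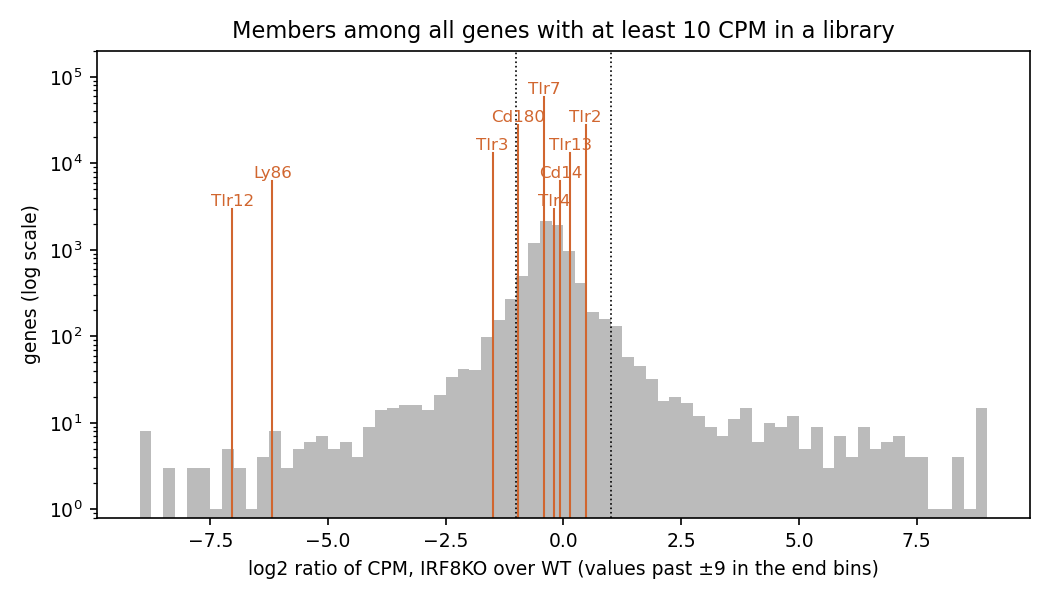
Histogram of the log2 ratio, IRF8KO over WT, for the 8859 genes that reached 10 CPM in either library (gene count on a log scale), with orange lines at the 9 genes of the set that met the minimum; line heights only keep the names apart, and dotted lines mark 2-fold. Tlr12 at -7.03 and Ly86 at -6.18 lie in the lower tail, and Tlr3 at -1.51 lies past the 2-fold line. Cd180 at -0.96 lies just inside that line, and the others lie in the bulk of the distribution. Under TMM scaling Tlr4 and Cd14 move to the other side of 0.

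Detection per cell was compared after thinning each cell to 2000 UMIs. The mean thinned WT cell held 4.02 Ly86 UMIs and the mean thinned IRF8KO cell 0.0486. No other gene passed a mean of 0.64 UMIs in either library. At such low means the share of cells with a UMI largely follows the summed level. Except for Ly86 in WT, this share therefore cannot separate fewer cells with a transcript from fewer transcripts per cell. The 285 WT and 498 IRF8KO cells below that depth were left out, which left 3019 and 4509 cells. Ly86 had a UMI in 96.6% of WT cells and 3.39% of IRF8KO cells (98.8% and 5.75% without thinning). Tlr12 had a UMI in 6.06% and 0.0665% (14.5% and 0.0999%), and Tlr3 in 20.2% and 7.41% (37.1% and 11.98%). These 3 genes, lower in summed level, were also found in a smaller share of cells, which is not a separate result. Cd180 was found in 34.0% and 19.1% of cells (54.0% and 30.4%), and Tlr7 in 32.5% and 25.1% (53.4% and 38.3%). The remaining surface genes differed less: Tlr4 was found in 13.6% and 11.9% of cells (27.8% and 20.1%) and Cd14 in 46.1% and 42.5% (65.8% and 55.8%). Tlr2 was found in 15.9% of WT cells and 20.8% of IRF8KO cells (29.8% and 30.3%), and Tlr13 in 14.8% and 16.1% (30.1% and 26.6%). For Tlr13 the unthinned shares go the other way, so no order of detection is read from them. Tlr9 was found in 0.596% and 0.288% of cells (2.06% and 0.399%).

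Shares in the cells removed by the neutrophil gene rule give a level for transcripts that may not come from the cell itself. In 97 such cells after thinning (median 7057.5 UMIs over all 98 before it), Ly86 and Tlr12 had 0 cells with a UMI, which allows up to 3.09% by the rule of 3 counts and up to 3.73% by the exact interval. The 0.0665% of IRF8KO cells with Tlr12 lies below both limits, and the 3.39% with Ly86 lies between them. From these shares alone neither is read as expression, and 97 cells are too few to place the Ly86 share. In summed level, Ly86 stood at 26.9 CPM (24.6 to 29.4) in the IRF8KO cells used. In the removed cells it stood at 7.12 CPM (2.61 to 15.5). Whether the Ly86 UMIs come from the cells that hold them was not tested. Without thinning, 4.08% of the removed cells had a Ly86 UMI, against 5.75% of the IRF8KO cells used. These unthinned shares are not at equal depth, as the IRF8KO cells used had a median of 2933 UMIs and the removed cells 7057.5. Tlr3 and Cd180 were each found in 1.03% of these cells, Tlr2 and Tlr4 in 2.06%, Tlr13 and Cd14 in 3.09% and Tlr7 in 4.12%, each below the share in both groups of cells used. Neutrophils are known to carry several of these receptors, so for them the share is a comparison and not a pure background.

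**Figure D3:**
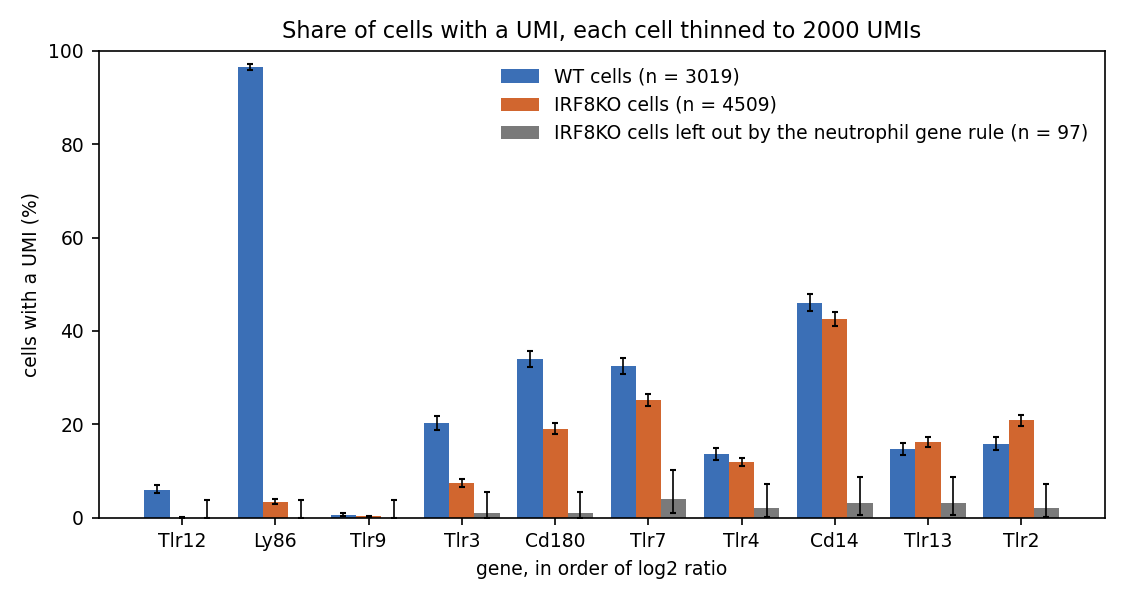
Share of cells (percent) with at least 1 UMI of each gene after thinning to 2000 UMIs, in 3019 WT cells (blue), 4509 IRF8KO cells (orange) and the 97 IRF8KO cells left out by the neutrophil gene rule (grey), with exact 95% binomial intervals and genes in order of their log2 ratio. Ly86 covers 96.6% of WT cells and 3.39% of IRF8KO cells, while Cd14, whose summed ratio changes sign with the scaling, covers 46.1% and 42.5%.

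Ly86 was detected in nearly all WT cells and in few IRF8KO cells. The median thinned WT cell had 4 Ly86 UMIs, the 5th percentile was 1, and 102 of 3019 cells had none. Of 4509 IRF8KO cells, 108 had 1 Ly86 UMI and 45 had more. The 50 cells with most Ly86 UMIs, without thinning, held 43.1% of all Ly86 UMIs of the library labelled IRF8KO and 14.7% of those in WT. Such a share is larger where fewer UMIs are counted, and the totals were 511 and 36180. The shares therefore do not show how unevenly cells express Ly86. In the library labelled IRF8KO, 288 cells had a Ly86 UMI, and 16 of them with at least 5 held 112 of the 511 UMIs. The variance of Ly86 UMIs over cells was 1.41 times the mean in WT and 1.83 times in the library labelled IRF8KO.

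Cells with Cd180 but no Ly86 were few in WT and made up most Cd180 cells of the library labelled IRF8KO. In thinned WT cells, 996 had both transcripts, 30 had Cd180 alone, 1921 had Ly86 alone and 72 had neither. In thinned IRF8KO cells, 26 had both, 836 had Cd180 alone, 127 had Ly86 alone and 3520 had neither. Ly86 thus accompanied Cd180 in 97.1% of WT cells with Cd180 (exact interval 95.9 to 98.0) and in 3.02% of IRF8KO cells with Cd180 (1.98 to 4.39). Over all thinned cells, with or without Cd180, Ly86 was found in 96.6% and 3.39%. The shares among Cd180 cells are close to these and are not a separate result. At equal depth, Cd180 was found in 34.1% of WT cells with Ly86 (32.4 to 35.9) and 29.4% of those without it (20.8 to 39.3), and in 17.0% (11.4 to 23.9) and 19.2% (18.03 to 20.4) of IRF8KO cells. These intervals overlap within each library, but they did not without thinning. Cd180 was then found in 54.3% of WT cells with Ly86 (52.6 to 56.0), and of the WT cells without it 12 had Cd180 and 28 did not (16.6% to 46.5%). The unthinned IRF8KO shares were 42.4% (36.6 to 48.3) and 29.7% (28.4 to 31.0).

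**Figure D4:**
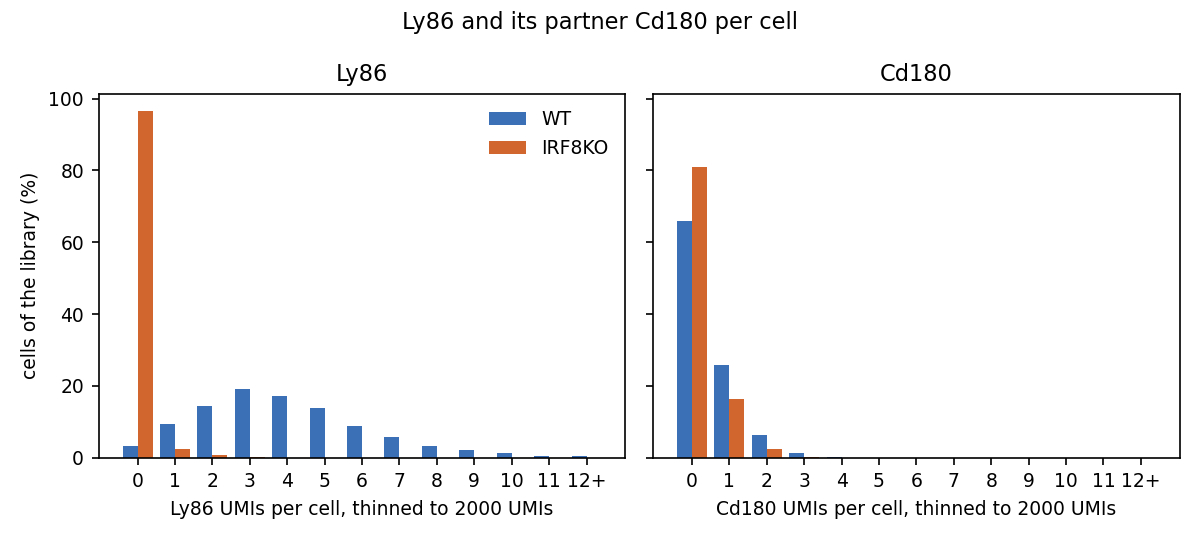
Percent of cells of each library (WT blue, 3019 cells; IRF8KO orange, 4509 cells) by number of Ly86 UMIs (left) and Cd180 UMIs (right) per cell, each cell thinned to 2000 UMIs. Ly86 runs around a median of 4 UMIs in WT and is at 0 in nearly all IRF8KO cells, while the Cd180 distributions of the libraries largely overlap.

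Ly86 in IRF8KO cells was looked at further in subsets set by genes that mark WT-like cells, chosen after values were seen. In 58 IRF8KO cells with under 2% of UMIs in Apoe, a share that 3303 of 3304 WT cells were also under, Ly86 stood at 212.3 CPM (153.7 to 286.0, from 43 UMIs), against 24.9 CPM in the other 4949. Cd180 stood at 192.6 CPM (137.0 to 263.3) and 112.4 CPM in the same cells. In 31 IRF8KO cells with a UMI of Sall1, a transcription factor of microglia, Ly86 stood at 137.1 CPM (85.9 to 207.6) and Tlr7 at 305.5 CPM (226.0 to 403.8), against 26.0 and 154.9 CPM without a Sall1 UMI. Both subset levels of Ly86 were below the 1951 CPM of WT. Of the 511 Ly86 UMIs in IRF8KO cells, 468 lay outside the Apoe subset and 489 outside the Sall1 subset. Tlr12 had 0 UMIs in both subsets, for which the upper exact limits are 18.2 and 23.0 CPM, below the WT level of 34.5 CPM. Without the 58 cells, the same count of 3 lower genes and 0 higher genes was found.

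For most of the set, the variance of UMIs over cells was close to the mean. Genes other than Ly86 had means of at most 0.64 UMIs per thinned cell, where this ratio can stay near 1 even if cells differ. It therefore does not show that cells differ little. The variance over the mean, which is 1 for pure counting, lay between 0.99 and 1.14 in WT for all genes but Ly86. In the library labelled IRF8KO it was 1.48 for Cd14, with up to 14 UMIs in a thinned cell against 6 in WT, and 1.29 for Tlr2. WT gave 1.11 for Cd14 and 1.14 for Tlr2.

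Tlr2 and Cd14 were also the genes that differed most with an activation score in the library labelled IRF8KO. The score summed 15 genes such as Ccl3, Ccl4, Fos and Il1b, and cells with 4 or more of its UMIs after thinning formed the upper group: 276 of 3019 WT cells (9.14%) and 492 of 4509 IRF8KO cells (10.9%). The cut passes through a continuous range, with 155 WT and 216 IRF8KO cells at it and 315 and 435 cells 1 UMI below. In the library labelled IRF8KO, Tlr2 stood at 214.5 CPM in the upper group and 119.2 CPM in the rest, a log2 ratio of 0.85 (0.69 to 1.004), and Cd14 at 430.2 and 292.9 CPM, 0.55 (0.44 to 0.66). In WT the same comparison gave 107.4 and 90.3 CPM for Tlr2, 0.25 (0.02 to 0.48), and 343.9 and 318.2 CPM for Cd14, 0.11 (-0.02 to 0.24). Between libraries, the log2 ratio of Tlr2 was 0.998 in upper cells and 0.40 in the rest, and that of Cd14 was 0.32 and -0.12, both on the scale of library totals. Tlr3 and Tlr4 were also higher in upper IRF8KO cells, at 0.40 (0.07 to 0.72) and 0.31 (0.05 to 0.56), with WT intervals that included 0. Tlr7 and Tlr13 were lower there, at -0.22 (-0.41 to -0.03) and -0.27 (-0.53 to -0.02), with WT intervals that included 0. Whether the libraries differ in these relations was not tested, since each is 1 library.

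An interferon score, the sum of 15 genes such as Ifit1, Rsad2 and Isg15, went with Tlr3. With 3 or more of its UMIs, 76 of 3019 WT cells (2.52%) and 1023 of 4509 IRF8KO cells (22.7%) formed the upper group, with 39 and 405 cells at the cut and 164 and 789 cells 1 UMI below. Tlr3 stood at 157.7 CPM in upper WT cells and 106.9 CPM in the rest, a log2 ratio of 0.56 (0.14 to 0.95). In the library labelled IRF8KO it stood at 56.2 and 32.8 CPM, 0.78 (0.54 to 1.004). Tlr3 was thus higher in the upper cells of both libraries, while its level in upper IRF8KO cells was below that in the rest of the WT cells. Ly86 stood at 32.7 and 25.6 CPM in the library labelled IRF8KO, 0.35 (0.06 to 0.64), and at 1986 and 1941 CPM in WT, 0.03 (-0.08 to 0.14). Tlr2 and Tlr4 were at 0.26 (0.13 to 0.39) and 0.29 (0.10 to 0.47) in the library labelled IRF8KO. In WT, with 25 and 27 UMIs in upper cells, they were at -0.34 (-0.97 to 0.23) and 0.09 (-0.52 to 0.64). Whether the libraries differ in these relations was not tested. Cd14 was lower in upper WT cells, at 245.3 and 322.0 CPM, -0.39 (-0.72 to -0.08), and its IRF8KO interval included 0. Cd180, Tlr7 and Tlr13 had intervals that included 0 in both libraries.

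The wider pathway was read from a list of 64 other genes in 8 roles. Of these, 52 had at least 10 CPM in a library, 9 were at least 2-fold lower in the library labelled IRF8KO (17.3%, beside 9.28 percent of all genes), 7 were at least 2-fold higher (13.5%, beside 5.61 percent), and their median log2 ratio was -0.34. TMM scaling left 5 lower and 8 higher. No call is made on the list from these shares.

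Of the 4 other Toll-like receptors that reached 10 CPM, 1 was at least 2-fold lower, beside 9.28 percent of all genes. Another 1 was at least 2-fold higher, beside 5.61 percent. Tlr8, an endosomal receptor at chrX:167242696-167264329 on the - strand, near Tlr7 on the same strand, had 0 WT and 636 IRF8KO UMIs. At 33.5 CPM it was at least 207-fold higher, with the WT count set to a floor of 3 over the library, and the lower exact limit of its log2 ratio was 7.39. Tlr5, the flagellin receptor, had 238 and 58 UMIs, or 12.8 and 3.06 CPM, a log2 ratio of -2.07. Tlr1 and Tlr6, the partners of Tlr2, stayed within 2-fold at -0.14 and -0.64, and Tlr1 became 0.11 under TMM scaling. Tlr11, the partner of Tlr12, had 3 WT and 0 IRF8KO UMIs, too few for a ratio.

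Among the 7 accessory genes with at least 10 CPM, 2 were at least 2-fold lower, beside 9.28 percent of all genes. Unc93b1, which carries the nucleic acid receptors to endosomes, stood at 1020 CPM in WT and 427.5 CPM in the library labelled IRF8KO, or -1.25 on the log2 scale. Slc15a4, a transporter of the endosomal membrane used in Tlr7 and Tlr9 signalling, stood at 103.4 and 45.6 CPM, or -1.18, and was -0.93 under TMM scaling. Ly96, the partner of Tlr4, had 49.5 and 44.9 CPM, or -0.14, and became 0.11 under TMM scaling; it is named here as that partner after its value was seen. None of the 7 was 2-fold higher.

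Most genes of the signalling chain lay within 2-fold, as did most of all genes. Over all 8859 genes, 9.28 percent were at least 2-fold lower and 5.61 percent at least 2-fold higher. No trait of the chain is read from the counts that follow. Ticam1, the adaptor of Tlr3, was the single adaptor of 5 past 2-fold, at 15.6 CPM in WT and 6.01 CPM in the library labelled IRF8KO, or -1.38 on the log2 scale. All 11 kinases and ligases with at least 10 CPM were within 2-fold, between -0.89 and 0.00. Of 7 transcription factors, Irf5, which acts after Myd88, stood at 206.2 and 81.0 CPM, or -1.35, and Irf7, an interferon-induced factor, at 4.21 and 37.6 CPM, or 3.16. Among genes listed under inhibitors, Peli1, a ubiquitin ligase, stood at 207.7 and 99.9 CPM, or -1.06, which was -0.80 under TMM scaling. Whether Peli1 acts as an inhibitor in these cells was not tested. Nfkbia, the inhibitor of NF-kappaB that NF-kappaB itself induces, stood at 97.6 and 202.5 CPM, or 1.05. Lgmn, 1 of 4 endosomal proteases listed, stood at 3258 and 1495 CPM, or -1.12, and -0.87 under TMM scaling.

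Of 8 target genes, 2 were at least 2-fold lower, beside 9.28 percent of all genes, and 4 at least 2-fold higher, beside 5.61 percent. Cxcl2, a neutrophil chemokine, had 0 WT and 958 IRF8KO UMIs, at least 312-fold higher with the WT count at its floor, and the lower exact limit of its log2 ratio was 7.98. Il1b, a cytokine, stood at 3.99 and 23.3 CPM, a log2 ratio of 2.54. Il6, also a cytokine, had 193 WT and 4 IRF8KO UMIs, or -5.63, and its 10.4 CPM in WT was close to the 10 CPM minimum. The median of the 8 was 0.71, with Cxcl2 at its bound.

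**Figure D5:**
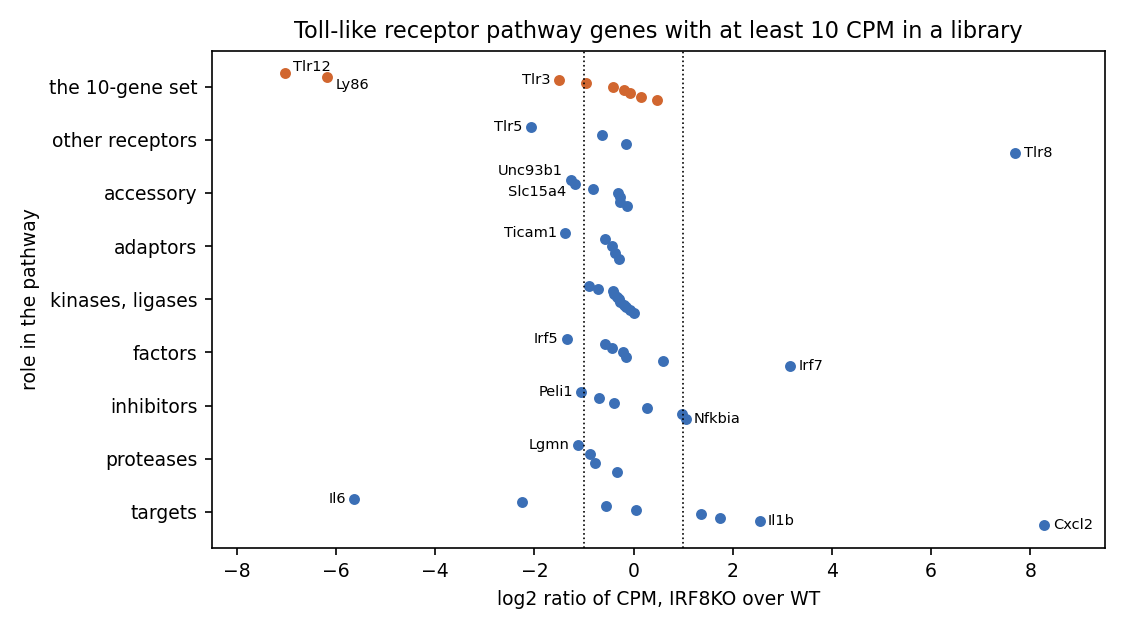
Log2 ratio of CPM, IRF8KO over WT, for the 9 genes of the set (orange) and 52 other pathway genes (blue) that reached 10 CPM in either library, 1 point per gene and 1 row per role; vertical spacing within a row only separates points, dotted lines mark 2-fold, and up to 3 genes past it are named per row. Tlr8 and Cxcl2 had 0 WT UMIs and are drawn at a floor of 3 counts. No kinase or ligase lies past 2-fold, beside 9.28 percent of all genes lower and 5.61 percent higher. Tlr4 and Cd14, near 0, change side under TMM scaling.

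Markers of cell types moved with these results. All 11 microglia markers had UMIs in both libraries, at a summed 33372 CPM in WT and 17329 CPM in the library labelled IRF8KO, with 9 lower and Sall1 at 2.85 CPM. The 11 border macrophage markers summed to 322 CPM in WT, where 5 of them were at 0, and 3991 CPM in the library labelled IRF8KO, where 10 were higher. Neutrophil markers summed to 2.48 and 54.3 CPM in the cells used, and T or NK cell markers to 0 and 0.105 CPM. Monocyte markers summed to 7.98 and 22.1 CPM, with 2 of the 5 higher in the library labelled IRF8KO and 2 lower. The part of border macrophage or other marker genes in the levels of the 10 genes was not tested, and with 1 pool per group, pool, handling and genotype cannot be told apart.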

How the data were processed

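Droplet single-cell RNA sequencing of sorted microglia gave 1 WT library and 1 library labelled IRF8KO, grouped by sample title. The authors deposited raw UMI counts per gene and barcode, with no normalization, and the file headers name software 3.1.0 and format 2. The build mm10 and the tools bcl2fastq, Cell Ranger 3.1 and Scanpy are named in the submitters' processing notes; how strand was used and barcodes selected is not stated there, and no WT barcode held fewer than 500 UMIs, nor any IRF8KO barcode fewer than 501.

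UMIs were summed over the cells used and divided by the library total to give CPM (Python 3.11.15, numpy 2.4.6, scipy 1.17.1, pandas 2.3.3, matplotlib 3.10.9). The log2 ratio is IRF8KO over WT, a count of 0 was set to a floor of 3 counts over the library (0.162 CPM in WT, 0.158 in the other), and genes needed 10 CPM in a library to be counted. UMI counts were not scaled by gene length, so levels of different genes were not ranked. Intervals are exact 95% Poisson intervals for CPM, conditional binomial intervals for ratios and Clopper-Pearson intervals for shares. edgeR 4.0.16 in R 4.3.3 gave TMM factors (1.09 and 0.916) only; with 1 library per group no count test was run and no p-value computed. Thinning drew UMIs without replacement with a fixed seed. The ratio code was tested on simulated data. No doublet caller was run; 1 alternative dropped the cells with most UMIs, 87 of WT and 201 of IRF8KO. Score groups are cells at or above the 90th percentile of both libraries pooled. Gene positions come from GENCODE M21 on GRCm38 by gene identifier and promoter sequences from RefSeq on GRCm38.p6.

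The 10 genes and all lists were chosen with earlier results of these data known. Named were the 10 genes, Irf8 and, per pathway role, up to 3 genes past 2-fold with the largest ratio; Tlr1, Tlr6, Tlr11 and Ly96 were added as partners of the 10 genes after their values were seen. Alternatives covered scaling, cell filters, low values, pseudocount and thinning.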

Additional observations from a re-analysis of the deposited data

Results flagged for a closer look

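UMIs of the 10 genes also lay in cells that the comparison did not use. The 98 IRF8KO cells left out by the neutrophil gene rule, with no such cell in WT, held 22 Tlr2, 15 Tlr4, 27 Tlr7, 14 Tlr13, 6 Ly86, 18 Cd180 and 29 Cd14 UMIs. Each of these 7 counts was above the 3 counts that a count of 0 allows. In CPM they were 26.1 for Tlr2, 17.8 for Tlr4, 32.0 for Tlr7, 16.6 for Tlr13, 7.12 for Ly86, 21.4 for Cd180 and 34.4 for Cd14, below the level in the cells used of the same library for each gene.

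Barcodes left out by the limits on UMIs, genes and mitochondrial share held members' UMIs too. The 200 WT barcodes held 436 UMIs of the 10 genes, 269 of them Ly86, at 2673 CPM against 3100 CPM in the cells used. The 198 IRF8KO barcodes held 164, with 2 of Ly86, at 938 CPM against 931 CPM. Without Ly86 the level was 1024 CPM in left-out WT barcodes and 926 CPM in left-out IRF8KO barcodes, so the difference between the libraries in these barcodes lay mainly in Ly86, as it did in the cells used.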

How the results depend on the processing

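No replicate could be left out. No paired analysis was possible because each group is 1 library. Of 12 alternatives, 10 were planned and 2 were chosen after seeing the data (without the 58 IRF8KO cells low in Apoe, and without the shared barcodes). The count of 3 genes at least 2-fold lower became 4 with all kept cells and without the cells of highest UMI count, where Cd180 crossed the line, and without a minimum CPM, where Tlr9 joined. The count of 0 higher genes was found in all 12. The median of the set, -0.41, moved to -0.16 under TMM scaling, -0.26 when mitochondrial and ribosomal protein genes were left out of the totals, -0.34 when the 10 most abundant genes were, and -0.68 without a minimum CPM, where Tlr9 enters; each scaling multiplies all genes by 1 factor. The 9 lower pathway genes became 5 under TMM scaling, where Slc15a4, Peli1 and Lgmn came within 2-fold and Il6 under the minimum. Direction changed for 2 of the 10 genes: Tlr4, from -0.20 to 0.05 under TMM scaling, and Cd14, from -0.07 to 0.19 under TMM scaling, 0.08 and 0.0062 with those other totals. Shares of cells depend on depth: of 20 shares, 2 stayed within their interval without thinning, 1 with thinning to 1000 UMIs and 0 when 2 UMIs were asked for. Tlr12 and Tlr9, with 5 and 20 UMIs in the library labelled IRF8KO, are limited by depth.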
